A study of Mus musculus with 7 samples.

Results

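Around vascular amyloid of PDAPP mice given control IgG, smooth muscle actin (SMA), the immune checkpoint receptor CTLA4 and the matrix protein fibronectin were higher in the leptomeninges than on the penetrating vessels of each mouse. The myeloid antigen Ly6G/Ly6C, the checkpoint receptor PD-1, the transcription factor BatF3 and the co-stimulatory receptor CD28 were lower there, in relation to negative-control antibodies. CD28 lay below these controls at both sites and PD-1 did so in the leptomeninges, so those levels cannot be read as amounts. None of the 4 lower proteins passed the threshold with division by the housekeepers or with undivided counts. The comparison covered the 3 IgG mice of the 7 mice in the series (mice 29, 37 and 49) and 70 of its 166 regions of interest. By the region numbers in the labels, regions 1 to 12 of a mouse lay in the leptomeninges and regions 13 to 24 on penetrating vessels. This gave 34 leptomeningeal and 36 penetrating-vessel regions, since 2 leptomeningeal regions of mouse 37 had no counts.
The study asked which immune and vessel wall proteins change around vascular amyloid when an antibody against amyloid-β (Aβ) is given. PDAPP mice express a mutant human amyloid precursor protein, under the promoter of a platelet-derived growth factor gene, and deposit Aβ in the brain and in the walls of its vessels. All mice carried this transgene and no mouse without it was profiled, so the differences between the sites are those of vessels with amyloid. IgG mice received subcutaneous IgG (IgG2a isotype) at 50 mg/kg in 2 injections per week for 3 months. The 4 mice of the other group received 25 mg/kg of the anti-Aβ antibody 3D6 (IgG2b isotype), also for 3 months but with 1 weekly injection, and all mice were 23 to 26 months old. Proteins were measured in formalin-fixed coronal sections with GeoMx digital spatial profiling (DSP), in which tags on the antibodies are cleaved off by ultraviolet light within a chosen region, collected and counted. Each region was a circle of 100 μm, placed on vascular amyloid with fluorescent stains for β-amyloid and laminin.
The leptomeninges are the thin membranes on the surface of the brain, and their arteries run in cerebrospinal fluid inside a thick coat of smooth muscle. Branches of these arteries dive into the cortex as penetrating vessels, where the coat thins and astrocytes, microglia and perivascular macrophages lie close to the wall. In cerebral amyloid angiopathy, Aβ is laid down among the smooth muscle cells of both kinds of vessel and the muscle cells are gradually lost.
The panel held 31 probes, of which 25 were targets, 3 were housekeepers (Histone H3, S6 and GAPDH) and 3 were antibodies without a mouse target that serve as negative controls (the rat controls Rt IgG2a and Rt IgG2b, and the rabbit control Rb IgG). Values below are log2 ratios of a target's count to the negative controls, taken as the geometric mean of all 3, averaged over the regions of a mouse and site. A site difference is the leptomeningeal mean minus the penetrating-vessel mean of the same mouse. It was tested over the 3 mice with limma, with p-values adjusted over the 25 targets (Benjamini-Hochberg) and a threshold of 0.05. A count is summed over all cells of a circle, so fewer cells of a type and less protein per cell cannot be told apart. Ratios of different antibodies depend on how well each binds, so only ratios of the same target were compared between the sites.
The 3 IgG mice were read out in 3 different runs, so that a site difference lies within 1 run. The regions of mouse 37 stood apart. In 6 of its regions the negative controls exceeded 10 times the median of all IgG regions (174 counts), 5 of them on penetrating vessels and 1 in the leptomeninges, and no region of mouse 29 or 49 did so. For each target whose values are given by mouse, the difference of mouse 37 without these 6 regions stands beside them. Over all regions, the median total was 22754 counts (range 8646 to 90845) in the leptomeninges and 15707 counts (range 3361 to 254884) on penetrating vessels. A warning for few nuclei was attached to 19 of 34 leptomeningeal regions, among them all 10 of mouse 37, and to 7 of 36 penetrating-vessel regions, all of mouse 37.
Of the 25 targets, 7 differed between the sites at an adjusted p under 0.05 (28.0%), with 3 higher (12.0%) and 4 lower (16.0%) in the leptomeninges. The median difference of all 25 targets was -0.34. In 14 targets the 3 mice had the same direction (56.0%), 3 of them higher (12.0%) and 11 lower (44.0%) in the leptomeninges. The mouse means of the sites did not overlap in 7 targets (28.0%), namely SMA, CTLA4 and fibronectin on the high side and PD-1, BatF3, CD11b and CD3e on the low side.

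**Figure D1:**
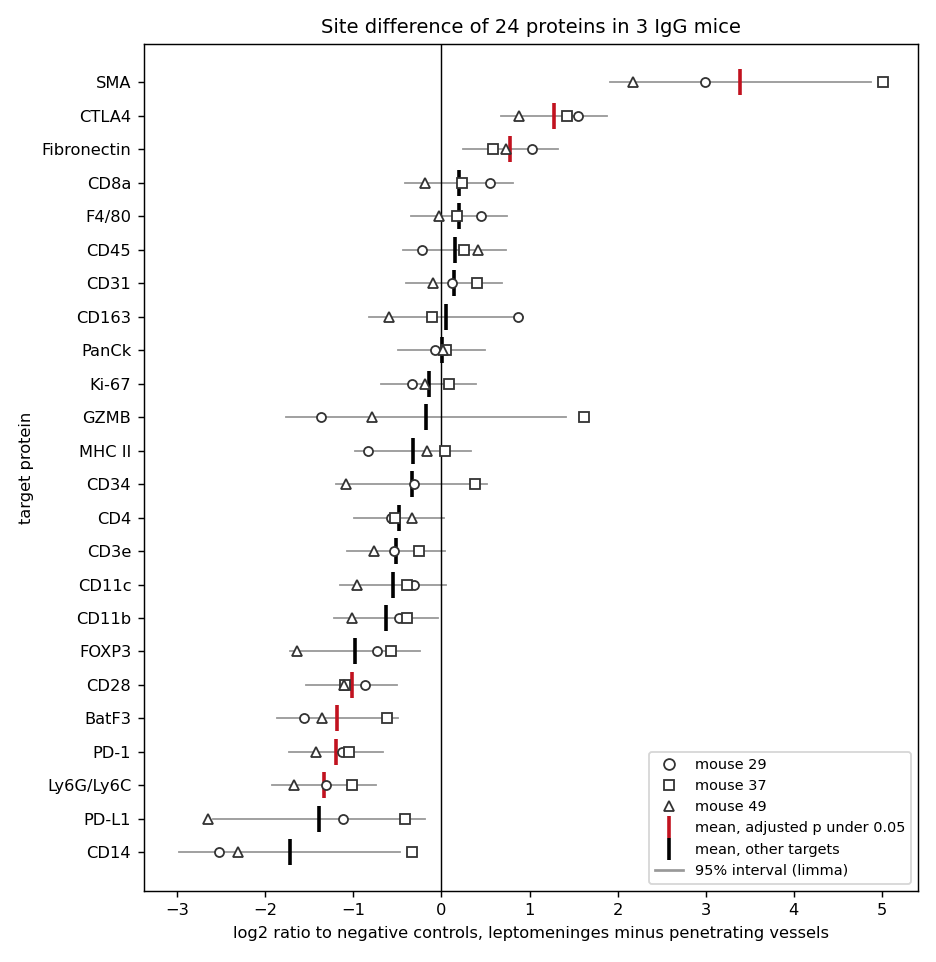
Site difference of 24 of the 25 targets in IgG mice (x axis: log2 ratio to the negative controls, leptomeninges minus penetrating vessels). Symbols are the 3 mice, vertical bars the mean and grey lines the 95% interval from limma. SMA lies far to the right of the other targets at 3.39, and the symbols of all 3 mice lie left of 0 for 11 targets.

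SMA, the contractile actin of the muscle coat, had the largest difference of the panel. Its mean log2 ratio in the leptomeninges was 9.79 in mouse 29, 9.40 in mouse 37 and 9.79 in mouse 49, and on penetrating vessels it was 6.80, 4.38 and 7.61 in the same order. All leptomeningeal means were close to each other and lay above every penetrating-vessel mean, while the penetrating vessels differed widely between the mice. SMA thus stood at 807 times the negative controls in the leptomeninges (9.66 ± 0.22, SD, n = 3) and at 76.8 times on penetrating vessels (6.26 ± 1.68, SD, n = 3). The site difference was 3.39 (standard error, SE, 0.57, 95% interval 1.91 to 4.88, limma adjusted p = 0.0179), a 10.5-fold difference, with 2.99, 5.02 and 2.18 in mice 29, 37 and 49. Without its high-background regions, mouse 37 had a difference of 4.23.
Single vessels showed the same contrast for SMA. On penetrating vessels of mouse 37, SMA ran from 1.74 over a median of 3.05 to 10.52, and in its leptomeninges from 7.45 over a median of 9.72 to 10.63. In mouse 29 the penetrating vessels ran from 4.23 to 8.54 (median 7.41) and the leptomeninges from 8.46 to 10.80 (median 9.91). In mouse 49 they ran from 2.96 to 9.44 (median 8.40) and from 9.28 to 11.04 (median 9.69). Of the 36 penetrating-vessel regions, 32 lay below every leptomeningeal region of their own mouse and 4 lay within its range, so the sites were almost separate while a few penetrating vessels carried as much SMA as leptomeningeal ones. SMA varied more among penetrating vessels (SD over regions 1.64, 2.96 and 1.89 in mice 29, 37 and 49) than among leptomeningeal vessels (0.62, 1.02 and 0.46).
SMA also dominated the counts of the leptomeninges. It took a median of 65.0%, 73.8% and 78.5% of all counts of a leptomeningeal region in mice 29, 37 and 49, and 11.7%, 2.82% and 27.9% of those of a penetrating-vessel region. For CD14, the lipopolysaccharide co-receptor of monocytes, macrophages and microglia, the order of the sites was the opposite. CD14 took a median of 10.2%, 5.56% and 2.45% in the leptomeninges and 44.0%, 22.5% and 15.9% on penetrating vessels.

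**Figure D2:**
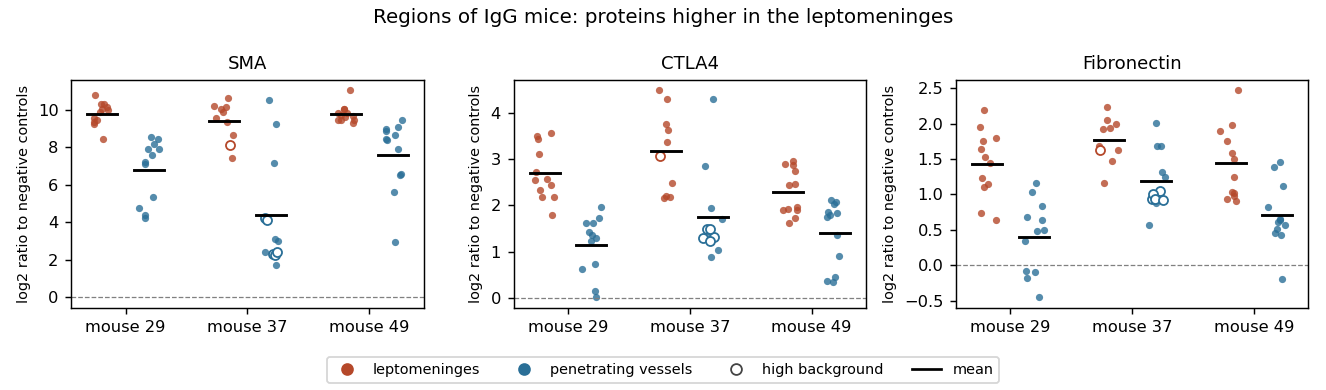
Regions of the 3 IgG mice for SMA, CTLA4 and fibronectin (y axis: log2 ratio to the negative controls). Each point is a region, open points are regions of high background, and bars are the mean of a mouse and site. For SMA, 32 of the 36 penetrating-vessel points lie below all leptomeningeal points of their mouse, and 26 do so for CTLA4 and 24 for fibronectin.

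Of the other vessel wall proteins, neither the endothelial adhesion molecule CD31 nor CD34, a sialomucin of endothelial and progenitor cells, passed the threshold. CD31 was 4.17, 3.86 and 3.62 in the leptomeninges and 4.06, 3.46 and 3.72 on penetrating vessels of mice 29, 37 and 49. These means overlapped, with differences of 0.11, 0.40 and -0.09, and 0.38 in mouse 37 without its regions of high background. The mean difference of CD31 was 0.14 (SE 0.21, 95% interval -0.41 to 0.69, limma adjusted p = 0.613). CD34 differed by -0.34 (95% interval -1.20 to 0.52). Of the 3 vessel wall proteins, 1 was higher in the leptomeninges and 2 did not pass, with a median of 0.14 beside -0.34 for all targets. Over all 25 targets, 12.0% were higher.
Fibronectin, a glycoprotein of the extracellular matrix and of basement membranes, was 1.43, 1.77 and 1.44 in the leptomeninges and 0.41, 1.19 and 0.70 on penetrating vessels of mice 29, 37 and 49. Every leptomeningeal mean lay above every penetrating-vessel mean. The difference was 0.78 (SE 0.21, 95% interval 0.24 to 1.32, limma adjusted p = 0.0493), or 1.72-fold, with 1.03, 0.58 and 0.74 in the 3 mice. Of the 36 penetrating-vessel regions, 24 lay below and 12 within the leptomeningeal range of their mouse. Fibronectin stood at 2.92 times the negative controls in the leptomeninges and at 1.70 times on penetrating vessels. Without the regions of high background, mouse 37 had a difference of 0.44, and the mean no longer passed (0.74, limma adjusted p = 0.0565).
CTLA4, an inhibitory receptor that takes the ligands of CD28, was the immune protein with a higher level in the leptomeninges. Its mean was 2.70, 3.16 and 2.29 in the leptomeninges and 1.15, 1.74 and 1.41 on penetrating vessels of mice 29, 37 and 49, with no overlap. The difference was 1.28 (SE 0.23, 95% interval 0.68 to 1.88, limma adjusted p = 0.0179), or 2.43-fold, and 1.55, 1.42 and 0.88 in the 3 mice. Its median counts in mouse 29 were 113 per leptomeningeal region and 28.4 per penetrating-vessel region. In mouse 49 they were 105 and 39.6. In mouse 37 they were 227 and 325, with 5 regions of high background on its penetrating vessels, and without the 6 such regions the difference of mouse 37 was 1.16.
CTLA4 followed SMA from region to region. Pearson's r between the log2 ratios of CTLA4 and SMA was 0.58, 0.64 and 0.76 over the leptomeningeal regions of mice 29, 37 and 49, and 0.58, 0.92 and 0.66 over their penetrating-vessel regions (10 to 12 regions each). These values are a description, since the regions share a section and both ratios share the negative controls as divisor. Across all 300 pairs of targets, the median of r over the 6 sets of regions was 0.26 in the middle pair, and 65 pairs (21.7%) were positive in all 6 sets. CTLA4 and SMA had a median of 0.65 and ranked 10 of 300 by the median and 3 by the lowest r. CD31 and SMA were also positive in all 6 sets, with a median of 0.61, and ranked 21 by the median and 6 by the lowest r. The value of 0.92 in mouse 37 includes its penetrating-vessel regions of high background, and r without them was not computed.
Of the 3 checkpoint proteins, CTLA4 was higher in the leptomeninges, PD-1 was lower and PD-L1 did not pass, with a median of -1.20 beside -0.34 for all targets. Over the 25 targets, 12.0% were higher and 16.0% were lower. PD-1, a brake on T cells that appears once they are activated, had means of -1.15, -0.72 and -1.17 in the leptomeninges and -0.03, 0.32 and 0.26 on penetrating vessels of mice 29, 37 and 49, without overlap. The difference was -1.20 (SE 0.21, 95% interval -1.73 to -0.67, limma adjusted p = 0.0179), with -1.13, -1.04 and -1.42 in the 3 mice. In mouse 37, PD-1 was 1.19 to 1.56 in the 5 penetrating-vessel regions of high background and -1.44 to 0.30 in the others, and without the 6 such regions its difference was -0.42 (mean of the 3 mice -0.99, limma adjusted p = 0.0340). PD-1 lay at 0.495 times the negative controls in the leptomeninges and at 1.14 times on penetrating vessels, and 2 of 34 leptomeningeal regions were above their negative controls. A level under the negative controls cannot be read as an amount of PD-1, and median counts were 9.85, 14.3 and 7.99 per leptomeningeal region.
PD-L1, the ligand of PD-1 on myeloid and other cells, was 1.41, 0.94 and -0.32 in the leptomeninges and 2.53, 1.36 and 2.33 on penetrating vessels. The means overlapped, as the leptomeningeal mean of mouse 29 (1.41) lay above the penetrating-vessel mean of mouse 37 (1.36). Mouse 37 differed by -0.41, beside -1.12 in mouse 29 and -2.66 in mouse 49. The mean difference of -1.40 (SE 0.46) did not pass (limma adjusted p = 0.0772). Without the regions of high background, mouse 37 differed by -0.91 and the mean passed (-1.56, limma adjusted p = 0.0124).
CD28, the receptor that co-stimulates T cells, was -1.86, -1.16 and -3.01 in the leptomeninges and -0.99, -0.07 and -1.90 on penetrating vessels of mice 29, 37 and 49. The mice overlapped between the sites but each was lower in the leptomeninges, with differences of -0.86, -1.09 and -1.11. The difference was -1.02 (SE 0.20, limma adjusted p = 0.0191). CD28 lay below the negative controls at both sites, at 0.248 and 0.504 times their level, and without the regions of high background mouse 37 differed by -0.41 and the mean did not pass (-0.79, limma adjusted p = 0.0546). In mouse 37, those regions held the highest CD28 ratios of penetrating vessels, at 0.75 to 1.50, beside -2.65 to 0.21 in the others.
Among the 8 T-cell proteins, CTLA4 was higher, PD-1 and CD28 were lower and 5 did not pass. Their median difference was -0.50, beside -0.34 for all targets. Of all 25 targets, 12.0% were higher and 16.0% were lower. FOXP3, the transcription factor of regulatory T cells, differed by -0.73, -0.58 and -1.64 in mice 29, 37 and 49 (mean -0.98, SE 0.29, limma adjusted p = 0.0527), at 0.296 and 0.585 times the negative controls. Without its regions of high background, mouse 37 differed by -0.28 in FOXP3. CD3e, which signals for the T-cell receptor, differed by -0.52 (95% interval -1.07 to 0.04) and CD4 by -0.48 (95% interval -0.99 to 0.03). CD8a, the chain of the co-receptor on cytotoxic T cells, differed by 0.56, 0.24 and -0.19 in mice 29, 37 and 49 (mean 0.20, SE 0.24, limma adjusted p = 0.571), and by 0.04 in mouse 37 without those regions.
The protease of cytotoxic granules GZMB changed direction between the mice. It was 3.49, 4.63 and 4.02 in the leptomeninges and 4.86, 3.01 and 4.82 on penetrating vessels, a difference of -1.36 in mouse 29, 1.62 in mouse 37 and -0.79 in mouse 49. On penetrating vessels of mouse 37, GZMB was 1.23 to 1.88 in the 5 regions of high background and 2.42 to 5.14 in the other 7 regions. Without the regions of high background, the difference of mouse 37 was 0.75.
Of the 7 myeloid proteins, Ly6G/Ly6C and BatF3 were lower in the leptomeninges, none was higher and 5 did not pass, where 16.0% of all targets were lower, with a median of -0.63 beside -0.34 for all targets. Ly6G/Ly6C, antigens of neutrophils and inflammatory monocytes, was 0.79, 1.27 and -0.62 in the leptomeninges and 2.10, 2.28 and 1.06 on penetrating vessels of mice 29, 37 and 49. Each mouse was lower in the leptomeninges although the means overlapped across mice, since mouse 49 was low at both sites. Ly6G/Ly6C stood at 1.39 times the negative controls in the leptomeninges and at 3.52 times on penetrating vessels. In mouse 49, 2 of 12 leptomeningeal regions were above their negative controls. The difference was -1.33 (SE 0.23, 95% interval -1.92 to -0.75, limma adjusted p = 0.0179), with -1.31, -1.01 and -1.67 in the 3 mice. Without its high-background regions, in which the ratio was 2.67 to 2.90, mouse 37 had a difference of -0.72. Of the 36 penetrating-vessel regions, 27 lay above the leptomeningeal range of their mouse, 9 within it and 0 below.
BatF3, a transcription factor of cross-presenting dendritic cells, was 2.34, 1.97 and 1.25 in the leptomeninges and 3.91, 2.59 and 2.62 on penetrating vessels, without overlap. The difference was -1.18 (SE 0.27, 95% interval -1.87 to -0.50, limma adjusted p = 0.0292), with -1.57, -0.62 and -1.36 in mice 29, 37 and 49, and -0.67 in mouse 37 without its regions of high background. BatF3 was well above background, at 3.62 and 8.21 times the negative controls, and each of the 70 regions was above its own negative controls. Of 36 penetrating-vessel regions, 25 lay above the leptomeningeal range of their mouse and 11 within it. Of the 3 proteins of antigen presentation, BatF3 was lower and the integrin CD11c of dendritic cells and macrophages (-0.55) and MHC II (-0.32) did not pass. Over all 25 targets, 16.0% were lower.

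**Figure D3:**
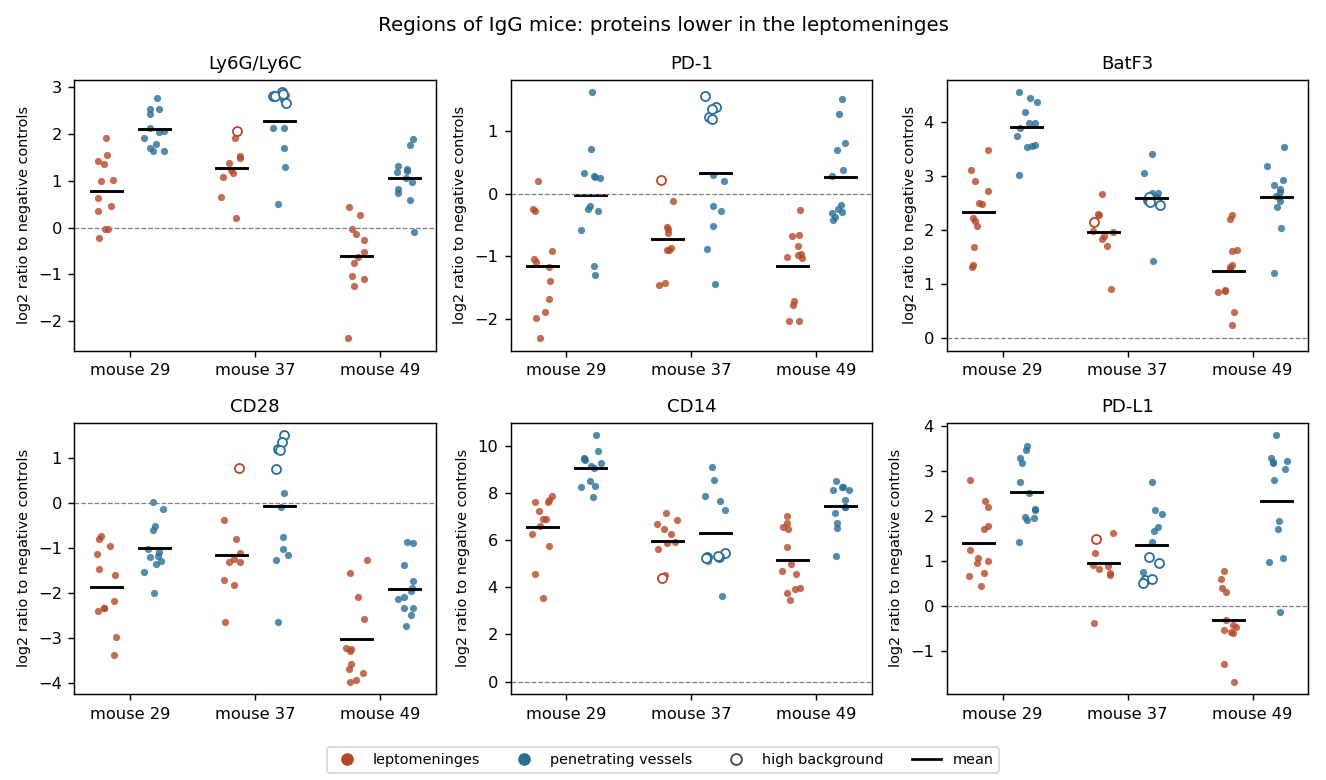
Regions of the 3 IgG mice for 6 proteins with lower means in the leptomeninges (y axis: log2 ratio to the negative controls, dashed line at 0). Each point is a region, open points are regions of high background and bars are means. PD-1 and CD28 lie around or below 0. For CD14, 11, 5 and 9 of 12 penetrating-vessel points lie above all leptomeningeal points in mice 29, 37 and 49.

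CD14 had the most negative mean difference of the panel and missed the threshold. It was 6.54, 5.98 and 5.15 in the leptomeninges and 9.07, 6.31 and 7.45 on penetrating vessels of mice 29, 37 and 49. Mice 29 and 49 differed by -2.53 and -2.31, and mouse 37 by -0.34. The mean difference was -1.72 (SE 0.49, 95% interval -2.98 to -0.47, limma adjusted p = 0.0527), at 59.3 times the negative controls in the leptomeninges and 196 times on penetrating vessels. In mouse 37, CD14 was 5.23 to 5.44 in the 5 penetrating-vessel regions of high background, and without the 6 such regions its difference was -0.87. The mean over the 3 mice was then -1.90 and passed (limma adjusted p = 0.00873).
CD14 and BatF3 had related levels across regions. Pearson's r was 0.82, 0.66 and 0.82 in the leptomeninges and 0.73, 0.73 and 0.88 on penetrating vessels of mice 29, 37 and 49, and the pair ranked 1 of 300 by the median and by the lowest r. CD14 and SMA had an r between -0.62 and 0.29. As above, these ratios share their divisor and no test was made, and the pairs named were chosen after their values were seen.
CD11b, an integrin subunit found on microglia, macrophages and neutrophils, was 2.79, 2.78 and 2.37 in the leptomeninges and 3.27, 3.17 and 3.39 on penetrating vessels. The means did not overlap, with differences of -0.48, -0.39 and -1.02. The mean difference was -0.63 (SE 0.23, limma adjusted p = 0.0933), and without the regions of high background it was -1.04 in mouse 37 and -0.85 over the mice (limma adjusted p = 0.0429). The macrophage glycoprotein F4/80 differed by 0.44, 0.17 and -0.03 in mice 29, 37 and 49 (mean 0.19, SE 0.21, limma adjusted p = 0.554, and -0.16 in mouse 37 without its regions of high background), and the scavenger receptor CD163 by 0.05 (95% interval -0.82 to 0.92).
CD45, the phosphatase carried by all leukocytes, did not pass between the sites of IgG mice. It was 1.39, 1.89 and 1.55 in the leptomeninges and 1.61, 1.64 and 1.13 on penetrating vessels, and the means overlapped. The differences were -0.22, 0.25 and 0.42 in mice 29, 37 and 49 (-0.11 in mouse 37 without its regions of high background), with a mean of 0.15 (SE 0.23, 95% interval -0.44 to 0.74, limma adjusted p = 0.613). The keratin marker PanCk differed by 0.00 (95% interval -0.50 to 0.50) and the proliferation antigen Ki-67 by -0.15 (95% interval -0.68 to 0.39).
The negative controls had a site difference in mean log2 count of 0.91 in mouse 29, -1.82 in mouse 37 and 0.52 in mouse 49, which did not have 1 direction (mean -0.13, exact sign-flip permutation test, p = 1). Without its high-background regions mouse 37 had 0.34, and all 3 mice were then higher in the leptomeninges (mean 0.59, exact sign-flip permutation test, p = 0.25, the smallest possible). Since every target was divided by them, the deposited counts give another picture of the low side. The 4 lower targets had log2 count differences of -0.40 (Ly6G/Ly6C), -0.21 (PD-1), -0.65 (BatF3) and 0.05 (CD28) in mouse 29, and of -1.15, -0.90, -0.84 and -0.58 in mouse 49. In mouse 37 without the high-background regions they were -0.38, -0.08, -0.33 and -0.07. SMA had count differences of 3.90, 4.57 and 2.70 in mice 29, 37 and 49 on the same basis, CTLA4 of 2.46, 1.50 and 1.40, and fibronectin of 1.94, 0.79 and 1.26.
With undivided counts and without the regions of high background, a setting chosen after the data were seen, 5 targets passed in limma. SMA, CTLA4 and fibronectin were higher (3.72, 1.79 and 1.33) and CD14 and PD-L1 were lower (-1.31 and -0.97), and the 4 lower targets named above did not pass. With division by the housekeepers, SMA, CTLA4 and fibronectin were higher (4.36, 2.25 and 1.75) and 0 targets were lower in limma, while the median of all targets moved from -0.34 to 0.63. At an unadjusted p under 0.05, 9 targets differed in that setting.
Cell content also differed between the sites. Leptomeningeal regions held fewer nuclei in each mouse, with differences of -12.2, -12.2 and -15.6 nuclei per region in mice 29, 37 and 49 (exact sign-flip permutation test, p = 0.25, the smallest that 3 mice allow). The levels were unlike, with means of 94.3, 12.6 and 18.3 nuclei in the leptomeninges and 106.5, 24.8 and 33.9 on penetrating vessels. The housekeepers had a log2 count difference of -0.01, -1.87 and -1.40. GAPDH and S6 were lower in the leptomeninges in each mouse, and Histone H3 was higher in mouse 29 (1.05) and lower in mice 37 and 49 (-1.72 and -1.03). Without the high-background regions, the housekeepers of mouse 37 differed by -0.22 together, and by 0.25 (Histone H3), -0.34 (S6) and -0.57 (GAPDH) singly. The part of nuclei, housekeepers and negative controls in the differences of the targets was not tested. Site and region number cannot be told apart, as the same numbers were used in each mouse.

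**Figure D4:**
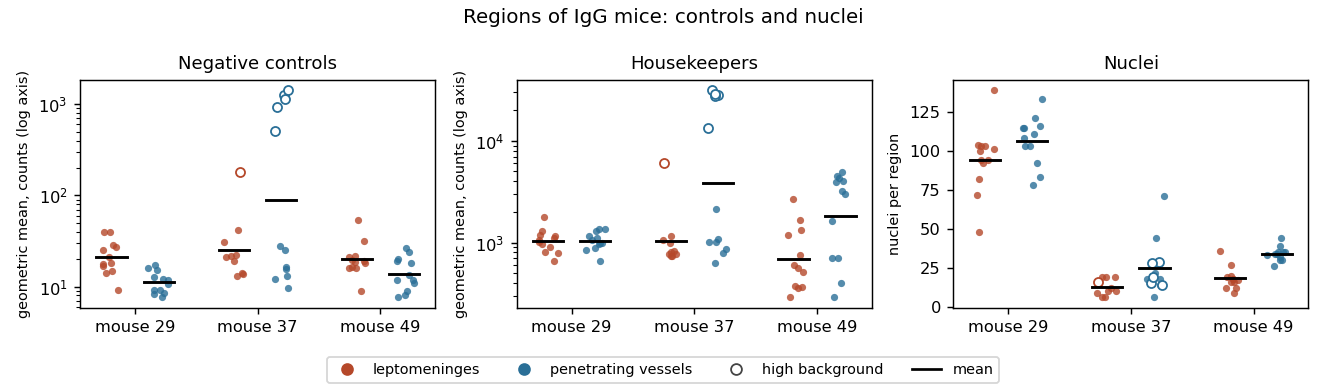
Negative controls, housekeepers (geometric mean counts, log axes) and nuclei per region in the 3 IgG mice, with bars for the mean of a mouse and site. The 6 open points of mouse 37 are the regions of high background, 5 of them on penetrating vessels, and mean nuclei are lower in the leptomeninges of each mouse.

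The site differences of IgG mice were set beside those of the 4 mice given 3D6, to see which of them also held there. The 3 IgG mice enter both comparisons. The site difference was different between the groups in 7 of 25 targets (28.0%, adjusted p under 0.05 in limma), and 6 of these were more positive in 3D6 mice (24.0%). SMA had site differences of 0.25 to 2.25 in the 4 3D6 mice, and their mean of 1.20 was below that of IgG mice by 2.20 (SE 0.69, limma adjusted p = 0.0417). With division by the housekeepers 1 of the 7 passed (SMA), with undivided counts 1 (fibronectin), and without IgG mouse 29 none of the 7 passed in limma, each at an unadjusted p under 0.05. Fibronectin had site differences of 1.77 to 3.58 in 3D6 mice, each above those of the IgG mice.
Ly6G/Ly6C and CD28, lower in the leptomeninges of all IgG mice, had site differences of -0.74 to 0.74 and of -0.22 to 0.66 in 3D6 mice. For Ly6G/Ly6C, mouse 37 had -0.72 without its regions of high background, within the range of the 3D6 mice. The groups differed by 1.27 for Ly6G/Ly6C (SE 0.39, limma adjusted p = 0.0417) and by 1.27 for CD28 (SE 0.32, limma adjusted p = 0.0177). CTLA4 had site differences of 0.59 to 1.03 in 3D6 mice, and its site difference was not shown to differ between the groups (-0.56, SE 0.31, limma adjusted p = 0.208). BatF3 had site differences of -0.98 to -0.06 in these mice, with a difference between the groups of 0.63 (SE 0.37, limma adjusted p = 0.208). For PD-1 they were -0.57 to 0.27 in 3D6 mice, each above those of the IgG mice over all regions. Without its regions of high background, mouse 37 had a PD-1 difference of -0.42, within the range of the 3D6 mice. The difference between the groups for PD-1 was 0.93 (SE 0.32) and did not pass (limma adjusted p = 0.0524). CD14 had site differences of -2.10 to -1.38 in the 4 3D6 mice, beside -2.53, -0.34 and -2.31 in the IgG mice, and the groups differed by -0.15 (SE 0.52, limma adjusted p = 0.777).

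**Figure D5:**
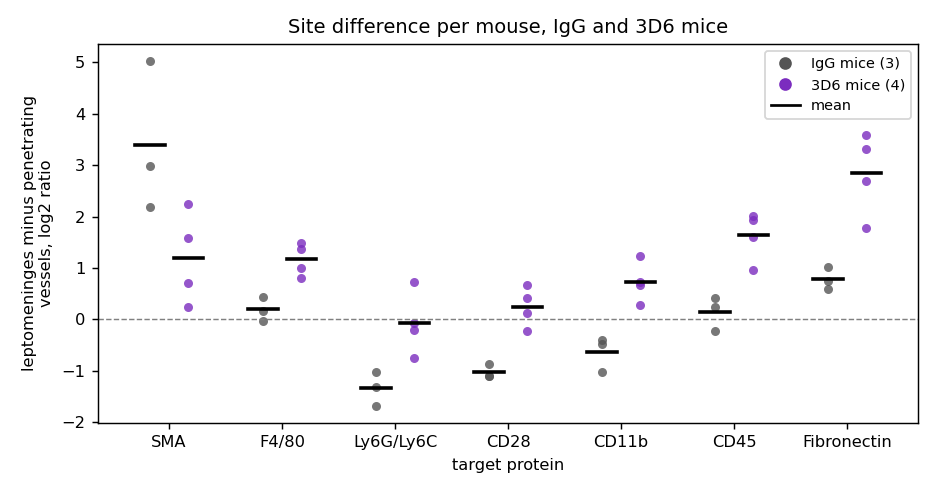
Site difference (y axis: log2 ratio, leptomeninges minus penetrating vessels) of each of the 3 IgG and 4 3D6 mice for the 7 targets whose site difference was different between the groups. Bars are group means. The 3D6 mice lie above the IgG mice for 6 targets, and for SMA their mean is 1.20 beside 3.39.

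Levels varied about as much within the leptomeninges as on penetrating vessels in mice 29 and 49. Of the 25 targets, 14, 21 and 11 had the larger SD over regions on penetrating vessels in mice 29, 37 and 49. The median SD over targets was 0.62, 0.55 and 0.59 in the leptomeninges and 0.63, 0.77 and 0.61 on penetrating vessels.
The calls rested on few mice. Without mouse 29, 0 targets passed in limma and 5 had an unadjusted p under 0.05, and without mouse 37, 12 passed (3 higher and 9 lower). Without moderation of the variances 0 passed and 6 had an unadjusted p under 0.05.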

How the data were processed

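Protein levels were measured with GeoMx DSP (modules for immune profiling and immune cell typing) in 7 mice. The deposited values are digital counts that the authors' instrument software had multiplied by technical factors, which makes them fractional, and that had not been divided by controls or area. Another deposited table holds scores that the authors made by dividing by the negative controls and scaling, and it was not used. The number of nuclei and its warning came from the deposited summary of regions, and 0 columns of counts were left unmapped. Counting tools for whole reads were not applied and no counting interval was given, because the counts are not whole.
The 3 negative controls of a region were averaged (geometric mean), each count was divided by this value and log2 was taken, without a pseudocount. Means per mouse and site were formed over regions, so the mouse is the replicate. The difference of the sites within a mouse, which pairs them by animal, was tested with limma 3.58.1 in R 4.3.3 (intercept model, empirical Bayes, two-sided), and the difference between 3D6 and IgG mice in a model with both groups. Adjustment was by Benjamini-Hochberg over 25 targets. Controls and nuclei were compared with an exact sign-flip permutation test over 8 sign patterns, which cannot give a p below 0.25. Pairs of targets were correlated within a mouse and site as a description. Python 3.11.15, numpy 2.4.6, pandas 2.3.3, matplotlib 3.10.9 and statmod 1.5.0 were also used. The fits were tested on simulated data.
Values in every mouse are given for targets past the threshold or at an unadjusted p under 0.05, the 5 largest differences in each direction, CD45, SMA, CD31 and fibronectin. The members, the lists (vessel wall, matrix, T cells, checkpoints, myeloid cells, leukocytes, antigen presentation, epithelium and proliferation) and the tests were chosen with earlier results of these data known. Values of 1 target, which did not pass, are not reported here, although it was tested and enters the counts over 25 targets. Alternatives covered the divisor, addition of 1 to each count, targets over 2 times background, the median over regions, regions of few nuclei or high background, regions as units with the mouse as a block, unpaired sites, the variance, and leaving out each mouse.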

Additional observations from a re-analysis of the deposited data

Results flagged for a closer look

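The difference between the sites was itself different between 3D6 and IgG mice in 7 of 25 targets (28.0%, adjusted p under 0.05 in limma on the site difference of each mouse). More positive in 3D6 mice were fibronectin (by 2.06, adjusted p = 0.0177), CD45 (1.48, adjusted p = 0.0177), CD11b (1.36, adjusted p = 0.0177), CD28 (1.27, adjusted p = 0.0177), Ly6G/Ly6C (1.27, adjusted p = 0.0417) and F4/80 (0.97, adjusted p = 0.0417), and for each of these 6 targets the lowest 3D6 mouse exceeded the highest IgG mouse (4 of 4). The same separation held for CD31, FOXP3, PD-1 and PanCk, whose differences between the groups did not pass, so it was not particular to these 6. Without its regions of high background, mouse 37 had differences of -0.72 (Ly6G/Ly6C), -0.42 (PD-1) and -0.28 (FOXP3). Each of these was above the lowest 3D6 mouse (-0.74, -0.57 and -0.57), so the separation of these targets rested on those regions. SMA was more negative in 3D6 mice (-2.20, adjusted p = 0.0417), and 3 of the 4 lay below every IgG mouse. This was also so for CD163 and CTLA4, which did not pass. Of these 7, 1 passed with division by the housekeepers (SMA), 1 with undivided counts (fibronectin) and none in limma without IgG mouse 29, each then at an unadjusted p under 0.05. Groups of 3 mice are too small for a search for single mice that stand apart from their group.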

How the results depend on the processing

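The 7 called targets kept their direction in every alternative run, and SMA stayed past the threshold in 14 of 17, CTLA4 in 12 of 17, PD-1 and Ly6G/Ly6C in 10 of 16 and 10 of 17, BatF3 in 9 of 17, fibronectin in 8 of 17 and CD28 in 6 of 16. The main fit pairs the sites within a mouse, and with no replicate block, the sites being taken as unpaired, 2 targets passed (1 higher, SMA, and 1 lower, PD-1). The count of 7 (3 higher and 4 lower) became 13 (10 lower) with division by Rb IgG alone, 3 (0 lower, 9 at an unadjusted p under 0.05) with the housekeepers and 1 (1 higher and 0 lower) with undivided counts. In the 3 fits with undivided counts, housekeepers or negative controls, the median of all targets was -0.47, 0.63 and -0.34. The count was 15 (12 lower) with regions as units and the mouse as a block, where regions of a mouse are counted as replicates, and 4 (2 lower) of 16 targets over 2 times the negative controls. It was 11 (8 lower) without regions of few nuclei, which leaves 2 mice. Undivided counts without the regions of high background, added after the data were seen, gave 2 lower. With the variance shared with the 3D6 mice 7 were lower. With the median over regions, 0 passed in limma (0 higher and 0 lower, 9 at an unadjusted p under 0.05), and without moderation of the variances, 0 passed (0 higher and 0 lower, 6 at an unadjusted p under 0.05). Leaving out each mouse in turn gave 0 to 12 targets (0 to 3 higher and 0 to 9 lower), with 0 without mouse 29 (5 at an unadjusted p under 0.05), 12 without mouse 37 and 4 without mouse 49. Each of these fits has 2 mice.
The 7 differences between 3D6 and IgG mice (6 higher, 1 lower) became 1 (0 higher) with the housekeepers and 1 (1 higher and 0 lower) with undivided counts, and 0 were lower without moderation of the variances. Leaving out each mouse gave 0 to 6 (0 to 6 higher and 0 to 1 lower), with 0 without IgG mouse 29.
Direction changed only in targets that had not passed. With the housekeepers the site difference was 0.33 for CD11b, 0.41 for CD11c, 0.63 for CD34, 0.45 for CD3e, 0.49 for CD4, 0.79 for GZMB, 0.82 for Ki-67 and 0.64 for MHC II. With undivided counts and no regions of high background it was 0.062 for CD11c, 0.19 for CD34, 0.0076 for CD3e, 0.34 for CD4, 0.12 for GZMB, 0.42 for Ki-67 and 0.14 for MHC II. With Rb IgG alone it was -0.13 for CD163, -0.038 for CD31, -0.030 for CD45 and -0.18 for PanCk. With the median over regions it was -0.035 for CD163 and -0.10 for PanCk, and with undivided counts -0.076 and -0.13. Without regions of few nuclei it was -0.11 for CD31, -0.10 for CD45 and -0.32 for PanCk, and without those of high background -0.016 for PanCk. Leaving out each mouse, CD163 ran from -0.36 to 0.38, CD34 from -0.70 to 0.036, GZMB from -1.08 to 0.41 and PanCk from -0.024 to 0.036. The cause of these changes was not tested. With 3 mice a site, differences as small as that of CD45 cannot be resolved. In the leptomeninges PD-1, CD28, FOXP3 and CD4 lay near or below the negative controls, at median counts down to 1.96 per region for CD28 in mouse 49. MHC II, CD163, Ki-67 and CD8a also lay near or below the negative controls at both sites, so their small differences cannot be read as equal amounts.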
